A study of Clarias macrocephalus with 14 samples.

Results

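The 150 Gene IDs with the steadiest levels over the early development of the broadhead catfish Clarias macrocephalus, a freshwater fish that breathes air, were described across 7 ages of whole fry. They were chosen among 23837 Gene IDs made of digits, each the sum of all assembled transcripts that carry the same ID. Of these, 18643 passed a filter on low counts, and 2929 had at least 20 CPM (counts per 1e+06 counts of a library, after scaling of the library totals by TMM, the trimmed mean of M values) in all 14 libraries. The members are the 150 of the 2929 with the smallest coefficient of variation (CV, the SD divided by the mean) of CPM over the 14 libraries. The levels themselves therefore chose the members, and their steadiness is described here without a test.

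The fry were 3, 5, 13, 14, 16, 17 and 24 days post fertilization (dpf), with 2 libraries at each age. The labels give no strain, genotype or treatment, record the sex as unknown, and do not say how many fry entered a library or whether the 2 libraries of an age came from separate spawns or tanks, so the spread between them may be technical. RNA came from the whole body, so a level is an average over all tissues, and a change in the share of a tissue cannot be told apart from a change in the RNA of its cells. The smallest library was replicate 2 of 24 dpf (1460853 counts) and the largest replicate 2 of 16 dpf (8837320 counts). TMM factors over Gene IDs lay between 0.391 and 0.657 in the 4 libraries of 17 and 24 dpf, and between 1.22 and 1.41 in the 10 younger ones. The table pairs no Gene ID with a gene name, so the members are given by ID and the cell type behind the tissue label was not checked against markers.

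Genes whose products every cell needs, such as parts of the ribosome, the proteasome or the splicing machinery, are often called housekeeping genes. Genes with an even level are used as references in PCR, where the amount of another transcript is given relative to theirs. No gene is even in an absolute sense in sequencing data, since each level is a share of a library and depends on how the library is scaled. The sources used here do not say which of the 150 IDs belong to these classes.

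The members had a median CV of 14.5%, from 7.06% to 16.7%. The other 2779 Gene IDs at 20 CPM or more had a median of 36.6%, from 16.8% to 194%. Over all 18643 Gene IDs past the filter the median was 47.5%. A member's highest library was 1.64 times its lowest in the median, with a range from 1.23 to 2.34, whereas the ratio was 3.25 in the median of the other 2779. In 23 members the highest library was under 1.5 times the lowest, and in 4 members it was over 2 times. The mean levels of the members ran from 24.4 to 201 CPM with a median of 48.8 CPM, lower than the median of 69.1 CPM of the other 2779, and 17 members averaged over 100 CPM. A mean under 50 CPM was found in 53.3% of the members and in 27.1% of the others. The floor of 20 CPM applies to the lowest library, so a steady ID can pass it at a lower mean than a variable one. Nothing is therefore read from the lower mean levels of the members. Another 64 Gene IDs past the filter had a CV no higher than the last member but fell short of 20 CPM in at least 1 library, so the floor set part of the list.

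**Figure D1:**
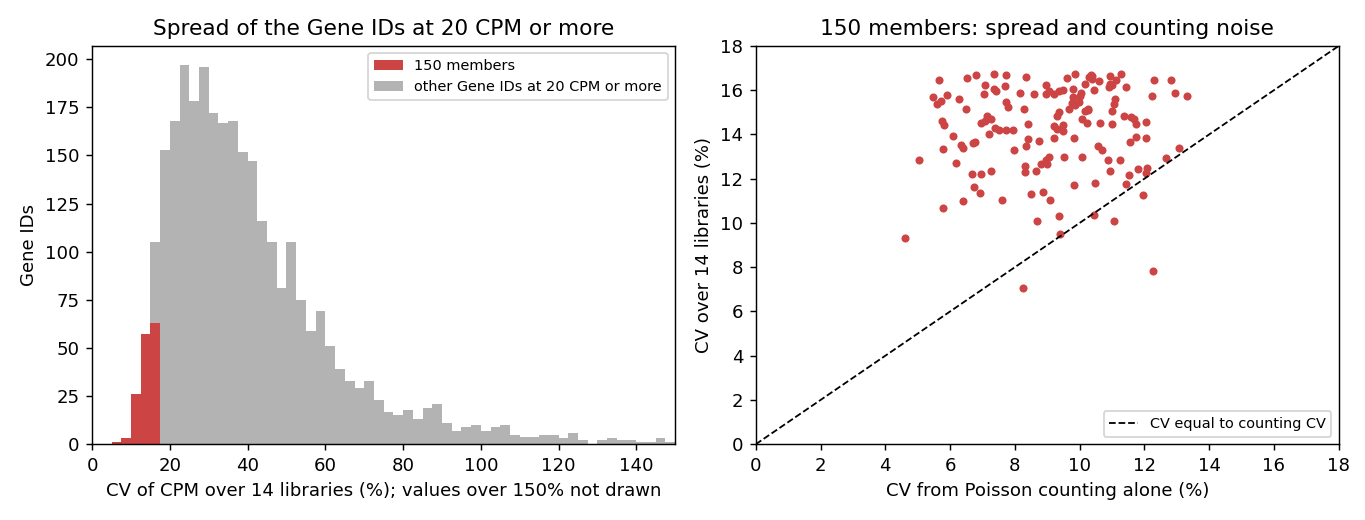
Left, the number of Gene IDs by CV of TMM-scaled CPM over 14 libraries for the 150 members (red) and, stacked on them, the other 2779 Gene IDs at 20 CPM or more (grey). Right, each member's CV against the CV that Poisson counting alone would give, where 5 members lie on or under the dashed line of equality.

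Gene ID 108275096 was the steadiest of all. It had 55.2 and 64.8 CPM (3 dpf), 54.8 and 54.1 (5 dpf), 65.4 and 59.9 (13 dpf), 59.1 and 61.8 (14 dpf), 64.96 and 62.4 (16 dpf), 53.1 and 61.2 (17 dpf), and finally 61.0 and 56.5 (24 dpf), a mean of 59.6 ± 4.21 CPM (SD over 14 libraries) and a CV of 7.06%. Its lowest and highest values came from replicate 1 of 17 dpf and replicate 1 of 13 dpf, and the values of most ages overlapped. Counting alone would give this ID a CV of 8.27%, more than was seen.

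Gene ID 108264545 followed at a lower level. Its values were 27.6 and 24.5 CPM (3 dpf), 29.1 and 24.95 (5 dpf), 27.3 and 29.3 (13 dpf), 27.7 and 25.1 (14 dpf), 29.3 and 29.97 (16 dpf), 31.7 and 28.2 (17 dpf), and finally 31.2 and 28.9 (24 dpf). The mean was 28.2 ± 2.2 CPM (SD, 14 libraries), and the CV of 7.81% again lay under the counting value of 12.3%. Replicate 2 of 3 dpf was the lowest library and replicate 1 of 17 dpf the highest.

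Gene ID 108266305 combined a small spread with the highest mean level of the list. It had 183 and 189 CPM (3 dpf), 217 and 219 (5 dpf), 193 and 185 (13 dpf), 195 and 179 (14 dpf), 211 and 211 (16 dpf), 201 and 175 (17 dpf), and finally 242 and 213 (24 dpf), with a mean of 201 ± 18.7 CPM (SD, 14 libraries). Its CV of 9.32% stood against 4.61% from counting, so counting made up less of its spread than in the first IDs. Both libraries of 5 dpf exceeded both of 3, 13, 14, 16 and 17 dpf, while the libraries of 24 dpf overlapped with those of 5 dpf.

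Gene ID 108255045 had 41.3 to 57.0 CPM, and both of these extremes came from the 24 dpf libraries. At 3 dpf Gene ID 108278137 had 39.98 and 42.0 CPM, above the 30.3 to 38.9 CPM of all other libraries. Their CVs were 9.48% and 10.1%. A CV of 10% or less was found in 4 members.

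At the middle of the list, Gene ID 108263586 (rank 75, CV 14.5%) had 32.1 CPM in its lowest library, replicate 1 of 5 dpf, and 53.7 CPM in its highest, replicate 2 of 24 dpf. Gene ID 108270154 (rank 76, CV 14.5%) had 59.4 CPM in replicate 2 of 3 dpf and 82.1 to 122 CPM in the other 13 libraries, with its highest value in replicate 1 of 24 dpf. The lowest mean level was that of Gene ID 108270981, with 24.4 ± 3.26 CPM (SD, 14 libraries) and as few as 15 counts in a library.

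No gap in CV marked the end of the list. Gene ID 108264340 (the last but one) had 35.5 to 64.9 CPM and Gene ID 108255778 (the last) 25.03 to 44.5 CPM, with CVs of 16.7% each. Just outside, Gene ID 108275146 had 34.8 to 62.4 CPM and Gene ID 108269686 20.4 to 36.5 CPM, with CVs of 16.8% each.

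**Figure D2:**
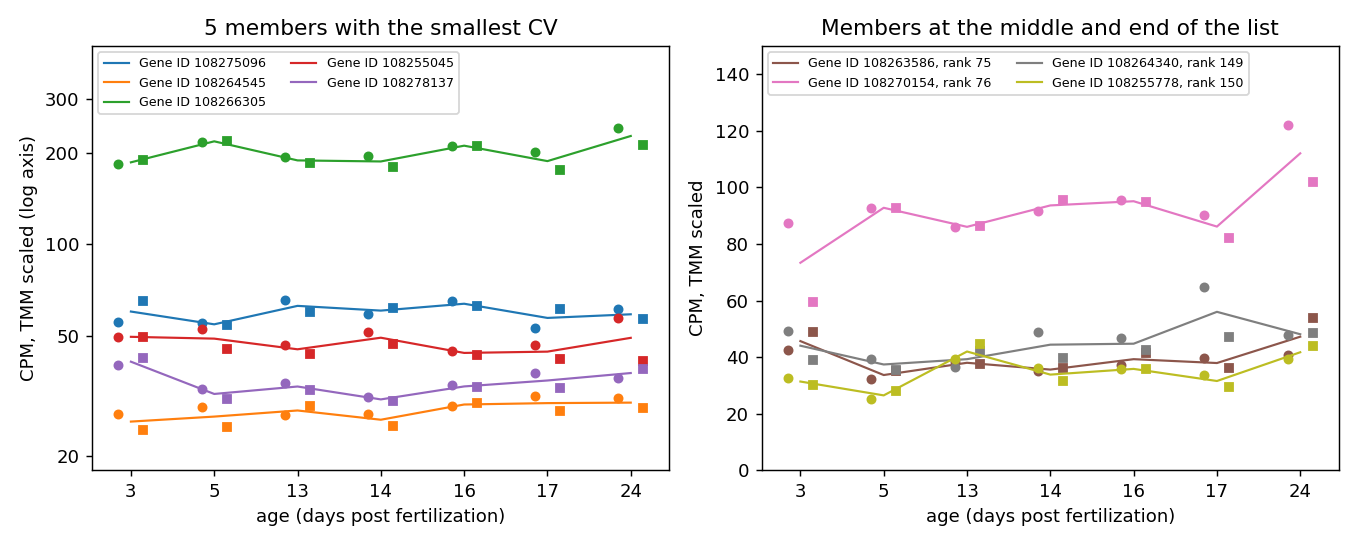
TMM-scaled CPM by age, with circles for replicate 1, squares for replicate 2 and lines through the age means, for the 5 members with the smallest CV (left, log axis) and for members 75 and 76 and the last 2 (right, linear axis). The first member stays between 53.1 and 65.4 CPM, and the last between 25.03 and 44.5 CPM.

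The spread of each member was set beside the spread that counting noise alone would give. The lowest library of a member held 15 to 155 counts, with a median of 34.6, and 105 members had a library with fewer than 50 counts. Poisson counting alone would give the members a CV of 4.61 to 13.3%, with a median of 9.33%, and it made up 40.9% of the squared CV in the median member. In 5 members the CV was no larger than the counting value, and in 31 it was over 2 times as large. The spread within ages had a median of 8.91% over the members, and in 75 of the 150 it did not exceed the counting value. The 7 age means of a member had a CV of 12.9% in the median, and in 114 members this was larger than the CV within ages. The highest age mean was 1.44 times the lowest in the median member, and it was under 1.5 times in 104 members.

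Among the ages, 24 dpf most often held the highest mean of a member. This was so for 48 of the 150 (32%), against 27 (3 dpf), 24 (14 dpf), 14 (5 dpf), 13 (both 16 and 17 dpf) and 11 (13 dpf). Among the other 2779 Gene IDs at 20 CPM or more, the share with the highest mean at 24 dpf was 42.4%. At 3 dpf this share was 7.56% in the others and 18% in the members. The lowest mean fell most often at 5 dpf, in 35 members (23.3%), and at 17 dpf, in 28 (18.7%). Among the other 2779 these shares were near the same, 25.9% and 18.7%. At 14 dpf the lowest mean fell in 16% of the members and 24.4% of the others. Relative to a member's own mean over the 7 ages, the median member stood highest at 24 dpf (1.08) and lowest at 5 dpf (0.961), with 0.973 at 17 dpf and values of 0.991 to 1.01 elsewhere. At 24 dpf 21 members exceeded 1.2 times their mean, and at 5 dpf 13 members were below 0.8 times theirs. The spread between the 2 libraries of an age was also widest at 24 dpf, where the members differed 1.15-fold in the median, against 1.13-fold at 17 dpf, and elsewhere 1.05 to 1.09-fold. The 24 dpf libraries had the fewest counts.

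Both libraries of some age lay above the other 12 in 39 members (26% of them), among them 13 with 24 dpf on top, and below the other 12 in 63 members, among them 19 with 5 dpf and 13 with 17 dpf at the bottom. Over all 18643 Gene IDs past the filter, 52.3% had an age above the other 12 libraries and 43.2% an age below them, and among the 2929 at 20 CPM or more these shares were 63.3% and 60%. The list was chosen for small differences in these same values, so nothing is read from the shares.

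The members were steady but not all without measured change. When edgeR's quasi-likelihood test compared all 7 ages at once, 87 of the 150 (58%) passed a Benjamini-Hochberg adjusted p under 0.05, where 89.9% of all 18643 Gene IDs and 96.8% of the 2929 at 20 CPM or more did. From 3 to 5 dpf 26 members were called (17.3%), 10 higher and 16 lower, against 45.2% of all Gene IDs. From 5 to 13 dpf 32 were called (21.3%), 17 higher and 15 lower, against 53.5%. From 13 to 14 dpf 28 were called (18.7%), 18 higher and 10 lower, against 47.8%. These shares are descriptions, because the rule used the same values.

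In the later steps fewer members were called, although the median size of the members' changes was not smaller there. From 14 to 16 dpf there were 19 (12.7%), 6 higher and 13 lower, against 33.6% of all Gene IDs. From 16 to 17 dpf there were 17 (11.3%), 10 higher and 7 lower, against 46.8%. From 17 to 24 dpf there were 8 (5.33%), 7 higher and 1 lower, against 25.4% (13.5% higher and 11.9% lower). Between the first and the last age, 24 against 3 dpf, 13 members were called (8.67%), all of them higher. Of all Gene IDs 32.5% were called, 16.9% higher and 15.6% lower. At an unadjusted p under 0.05 the same edgeR test had 20 members higher and 6 lower, while DESeq2 called 17 higher and 0 lower and limma-voom 14 higher and 0 lower at an adjusted p under 0.05. These settings used the same values as the rule, and shares of all Gene IDs are not given for them. Their counts are descriptions and add no support for a direction.

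The sizes of these differences were small. The median absolute log2 change of a member was 0.15 to 0.23 over the 7 comparisons, which is 1.11 to 1.17-fold, where the median over the other 2779 Gene IDs at 20 CPM or more was 0.33 to 0.65. For the members it was 0.154 to 0.163 in the steps up to 14 dpf and 0.169 to 0.196 in the steps after it. It was 0.226 for 24 against 3 dpf. The 24 dpf libraries had the fewest counts, and the part of depth in the fewer calls was not tested. No comparison had a member change of more than 0.74 on the log2 scale in either direction. The direction of the calls depended on the scaling, little with DESeq2's size factors and more with upper-quartile scaling. The size factors gave 10 higher and 7 lower from 16 to 17 dpf and 10 and 1 from 17 to 24 dpf. They gave 16 and 0 from 3 to 24 dpf, but 15 and 18 from 5 to 13 dpf. With upper-quartile scaling there were 8 higher and 24 lower from 3 to 5 dpf, 22 and 12 from 5 to 13 dpf, 22 and 2 from 16 to 17 dpf, 3 and 3 from 17 to 24 dpf and 11 and 6 from 3 to 24 dpf. That scaling moved the median log2 change over all Gene IDs by 0.13 from 16 to 17 dpf and by -0.16 from 17 to 24 dpf. Shares of all Gene IDs called are not given for these scalings, so the member counts are descriptions. The counts also changed when 1 of the 14 libraries was left out at a time. Over all Gene IDs fewer were called as well from 14 to 16 dpf without any one library of these ages. The same held from 17 to 24 dpf without either library of 24 dpf. A lower count in such a fit is therefore not read as particular to the members. Without the low-count filter 2 members were called higher and 24 lower from 16 to 17 dpf.

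The largest fitted rise from 3 to 24 dpf in the list belonged to Gene ID 108271189. It had 25.7 and 24.5 CPM at 3 dpf and 46.1 and 37.2 CPM at 24 dpf, with 33.5 to 38.9 CPM in the 10 libraries between, and both libraries of 3 dpf lay below all others. The log2 change was 0.73 ± 0.21 (SE, edgeR quasi-likelihood test, adjusted p = 0.0102). Without replicate 1 of 24 dpf the log2 change was 0.56 (edgeR, adjusted p = 0.204), so the call rested on that library. Gene ID 108270154, described above for its low value in replicate 2 of 3 dpf, came next with a log2 change of 0.61 ± 0.18 (SE, edgeR, adjusted p = 0.0125). It was 0.35 without that library (edgeR, adjusted p = 0.177) and 0.46 without replicate 1 of 24 dpf (edgeR, adjusted p = 0.164).

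The largest fitted decreases did not pass the test. In Gene ID 108271611 the levels were 52.4 and 42.7 CPM at 3 dpf and 35.3 and 33.1 CPM at 24 dpf, a log2 change of -0.48 ± 0.22 (SE, edgeR, adjusted p = 0.0945). In Gene ID 108274995 the levels were 65.2 and 58.0 CPM at 3 dpf and 40.7 and 48.5 CPM at 24 dpf, a log2 change of -0.47 ± 0.19 (SE, edgeR, adjusted p = 0.0615). In both IDs the libraries of 3 dpf lay above those of 24 dpf. With upper-quartile scaling the log2 changes were -0.55 and -0.54, and both passed (edgeR, adjusted p = 0.049 and 0.0268). The second also passed without replicate 1 or 2 of 17 dpf (edgeR, adjusted p = 0.0483 and 0.0492).

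The steadiness of the list was tied to TMM scaling. At unscaled library totals the median member stood at 1.12 to 1.28 times its own mean in the 10 libraries of 3 to 16 dpf, at 0.522 and 0.571 in the 17 dpf libraries and at 0.388 and 0.493 in the 24 dpf libraries. Together the members took 1.07 to 1.22% of the counts of each library up to 16 dpf, but 0.508 and 0.545% (17 dpf), then 0.369 and 0.48% (24 dpf). After TMM scaling their summed level was 8368 to 9663 CPM in every library. The 20 Gene IDs with the highest totals moved in the opposite way, holding at most 34.5% of the counts in any library of 3 to 16 dpf and at least 54.5% in each library of 17 and 24 dpf. The part of those IDs in the members' share was not tested by itself.

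Recomputed at unscaled totals, the rule gave a list with no ID in common with the members. The median CV of the members was 36.3% there, and only 77 of them kept 20 CPM or more in all libraries. The 150 IDs that were steadiest at unscaled totals had a median CV of 20.1% on that scale and 48.1% after TMM scaling. With the 20 highest Gene IDs left out of unscaled totals, a setting chosen after seeing the data, 24 members were chosen again. Other methods built on the bulk of the genes came close to TMM: DESeq2's size factors kept 143 of the 150 and upper-quartile scaling 126.

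**Figure D3:**
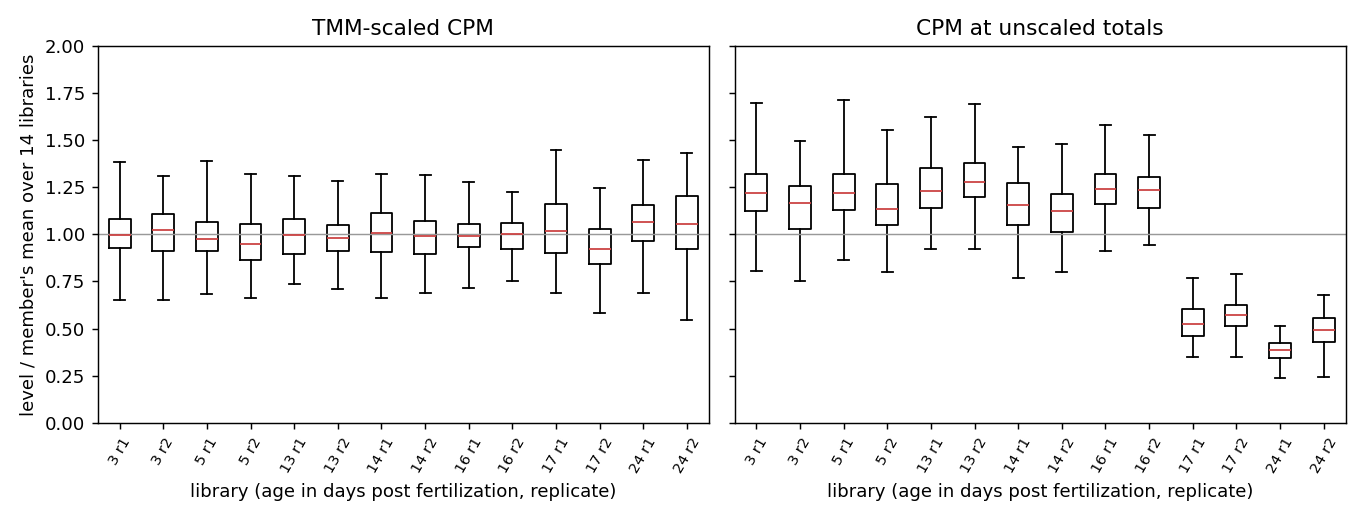
Level of the 150 members in each library relative to each member's own mean over 14 libraries, after TMM scaling (left) and at unscaled totals (right); boxes show the middle 50% with the median in red, and whiskers run to the lowest and highest member. At unscaled totals the medians are 1.12 to 1.28 up to 16 dpf and 0.388 to 0.571 at 17 and 24 dpf.

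Membership also depended on the libraries. Leaving out a single library kept 106 to 144 of the 150, and the 2 lowest values were those without a library of 24 dpf. Without both libraries of 24 dpf 87 were kept, without 5 dpf 95, and without 17 and 24 dpf 49. A list chosen on the 7 libraries with replicate number 1 had a median CV of 12.8% in those libraries and of 18.2% in the other 7, which it had not used, where all Gene IDs eligible for it had a median of 37.1%. Of its 150 IDs, 131 were within the steadiest 25% of the eligible IDs in the libraries not used. A list chosen on replicate number 2 went from 13.6% to 17.3%, against 36.7% for its eligible IDs, and 134 of its IDs were within the steadiest 25%. These lists shared 53 IDs with each other, or 35.3% of each, and 91 and 99 with the members. In both cases the spread was larger in the libraries not used, and each list had been picked for a small spread in its own. The libraries not used were of the same 7 ages and may be technical repeats. Their values were scaled together with all 14 libraries. These lists therefore say nothing about steadiness in other fry.

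Each member is a sum, and its parts were examined because their shares did not enter the rule, although an ID with a large transcript that changes would tend to have a changing sum. The members comprised 2417 assembled transcripts, 1 to 128 per ID with a median of 13, and the median of the other 2779 IDs was 12. A single member had only 1 transcript. The transcript with the most counts, called the leading transcript here, held 62.6% of a member's counts in the median, and over 50% in 105 members (70%, against 65.5% of the other 2779). The sources used here do not say whether transcripts of an ID are isoforms, fragments of a gene or copies of it.

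Of the 671 member transcripts that passed the low-count filter, 415 (61.8%) differed among the 7 ages (edgeR quasi-likelihood test, adjusted p under 0.05), where 83.1% of all 42915 transcripts tested did. This test compared levels and not shares. The levels of an ID's transcripts add up to the sum that the rule used, so nothing is read from the lower percentage. Transcripts of 5 dpf alone, with at least 20 counts there and fewer than 3 at each remaining age, occurred in 64 members (42.7%) and in 43.9% of the other 2779 IDs. There were 121 such transcripts in the list, and they held 12.7% of the 5 dpf counts in the median of those 64 members, with a maximum of 37.8%. Summing only transcripts with a count at every age kept 118 of the 150 members.

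Shares of transcripts within an ID were then tested with edgeR's diffSpliceDGE, which compares each transcript with the other transcripts of its ID. Of the 150 members, 137 had at least 2 transcripts past the filter and could be tested, and in 109 (79.6%) the shares differed in at least 1 of the 7 comparisons, against 70.8% of all 8787 Gene IDs tested and 87.4% of those at 20 CPM or more. From 3 to 5 dpf 70 of the 137 (51.1%) were called, against 43.8% of all Gene IDs tested and 58.1% of those at 20 CPM or more. From 5 to 13 dpf 64 were called (46.7%), against 47.2% and 57.8%. From 13 to 14 dpf 52 were called (38%), against 25.4% and 44.9%. In all 7 comparisons, the rest of which follow, the share of members called was below that of all IDs at 20 CPM or more. The difference was slight from 16 to 17 dpf. The members also had lower mean levels, with a median of 48.8 CPM against 69.1 CPM in the other 2779 IDs at 20 CPM or more. The part of the lower levels in the fewer calls was not tested.

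From 14 to 16 dpf 57 members were called for transcript shares (41.6%), against 31.8% of all and 54.5% of those at 20 CPM or more. From 16 to 17 dpf 37 were called (27%), against 14.5% and 27.7%. From 17 to 24 dpf 9 were called (6.57%), against 3.84% and 8.43%, and for 24 against 3 dpf 16 (11.7%), against 9.41% and 20.8%.

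**Figure D4:**
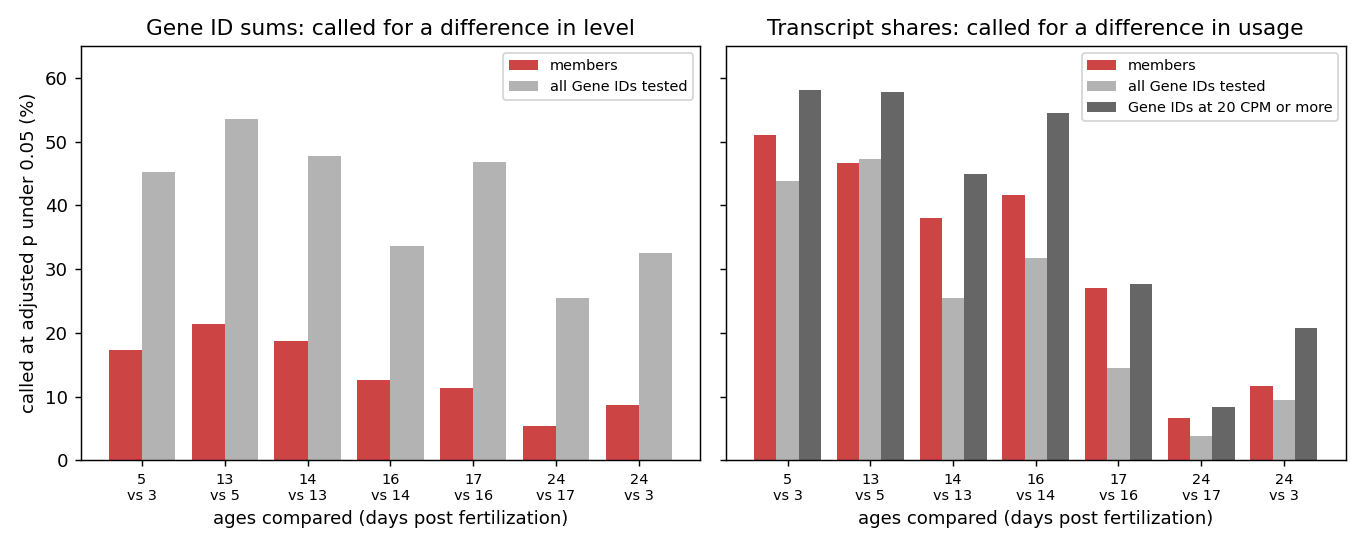
Percent of Gene IDs called at an adjusted p under 0.05 in 7 comparisons of ages, for the level of the Gene ID sum (left, edgeR quasi-likelihood test) and for transcript shares within the ID (right, edgeR diffSpliceDGE). Both panels show members (red) and all Gene IDs tested (light grey). The right panel also shows Gene IDs at 20 CPM or more in all libraries (dark grey). Member sums were called in 5.33 to 21.3%, and member shares in 6.57 to 51.1%.

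In the members called, the size of the share changes differed between the comparisons. Among members called in the 5 steps from 3 to 17 dpf, the largest change of any transcript's share had a median of 10.1 to 13.0 percentage points and a maximum of 22.7 to 34.2 points. A change of 20 points was reached there by 7 of 70, 11 of 64, 9 of 52, 7 of 57 and 4 of 37 members called, in order of age. Changes were larger in the few members called at 24 dpf: the median was 22.2 points and the maximum 54.1 against 17 dpf, with 5 of 9 at 20 points or more, and 16.1 and 52.6 points against 3 dpf, with 5 of 16. Over all 137 members tested, called or not, the median was 7.36 points against 17 dpf and 9.17 points against 3 dpf. In the 5 steps from 3 to 17 dpf that median was 6.89 to 8.45 points. The 24 dpf libraries had the fewest counts, and their part in the larger changes of called members was not tested. The counts for 24 against 3 dpf were not stable. Simes' test called 2 of 137 members (1.46%), against 4.07% of all Gene IDs tested. A looser filter on transcripts called 2 of 147 members (1.36%), against 3.57% of all Gene IDs tested. Over all Gene IDs these shares were also below the 9.41% of the main setting. Without any one library of 3 or 24 dpf fewer were called as well, both among the members and over all Gene IDs.

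In Gene ID 108274052 the leading transcript TRINITY_DN154278_c0_g1_i8 had 53.4 and 53.0% of the ID's counts (3 dpf), 54.8 and 54.1% (5 dpf), 50.3 and 54.3% (13 dpf), 28.0 and 30.4% (14 dpf), 55.2 and 57.5% (16 dpf), 66.5 and 61.9% (17 dpf), and finally 69.4 and 86.1% (24 dpf). Both 14 dpf libraries were below all others and both 24 dpf libraries above all others, while the sum of the ID stayed within 49.6 to 94.6 CPM (CV 14.3%). Its shares were called for 24 against 3 dpf (edgeR diffSpliceDGE, adjusted p = 0.0315).

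Gene ID 108270202 had 2 transcripts past the filter. Its leading transcript TRINITY_DN147779_c3_g3_i4 had 68.0 and 66.1% of the counts at 14 dpf and 100% in both 24 dpf libraries, and 74.7 to 98.2% in the others. The second, TRINITY_DN122225_c2_g1_i1, had 31.4 and 32.8% at 14 dpf and 0 counts at 24 dpf, where the ID had as few as 20 counts in a library (edgeR diffSpliceDGE for 24 against 3 dpf, adjusted p = 0.0334). The sum had 20.8 to 35.3 CPM, with the 13 dpf libraries lowest on average.

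Gene IDs 108265731 and 108277336 also had their highest leading shares at 24 dpf. In 108265731, the sixth member by CV, the leading transcript had 64.1 and 66.1% at 3 dpf, 53.1 to 68.3% from 5 to 16 dpf, 79.5 and 74.4% (17 dpf), then 92.3 and 83.3% (24 dpf; edgeR diffSpliceDGE for 24 against 3 dpf, adjusted p = 0.0275). In 108277336 it had 75.3 and 75.2% at 3 dpf, 62.6 to 78.4% from 5 to 17 dpf, then 96.2 and 92.6% (24 dpf) (adjusted p = 0.0274 by the same edgeR test). In both IDs the 24 dpf libraries were above all others, and their sums differed 1.45-fold and 1.47-fold between the highest and the lowest library. None of these 4 IDs was called by Simes' test or with the looser filter, with adjusted p of 0.111 to 0.414 and 0.0619 to 0.435. All 4 calls were lost without either replicate of 3 dpf (edgeR diffSpliceDGE, adjusted p = 0.0536 to 0.293) and without either replicate of 24 dpf (adjusted p = 0.176 to 0.775 by the same edgeR test). Some were also lost without a library of another age: 108274052 without either of 13 dpf, 108270202 without either of 14 dpf, 108277336 without either of 13 or 17 dpf, and 108265731 without any one of 13, 14, 16 or 17 dpf (adjusted p = 0.0512 to 0.177 over these by the same edgeR test).

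Gene ID 108269816, the member with the most transcripts, spread its counts over 128 of them. The leading one had 15.5 to 23.0% of the counts up to 17 dpf and 29.4 and 27.5% at 24 dpf (edgeR diffSpliceDGE for 24 against 3 dpf, adjusted p = 0.000311). Its sum was 107 to 171 CPM. Both libraries of 17 dpf had 169 CPM and those of 24 dpf 171 and 170.1 CPM, above the 10 libraries of the younger ages.

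Among all members but the one with a single transcript, the leading transcript had its highest share at 24 dpf in 70 (47%) and its lowest at 14 dpf in 59 (39.6%). Among the other 2753 Gene IDs at 20 CPM or more with at least 2 transcripts these shares were 36.1% and 31.9%. The median share was 67.4 and 70.2% in the 24 dpf libraries and 55.1 to 64.8% in the other 12, and it was 67.5 and 68% against 56.1 to 65% in the other IDs. The 24 dpf libraries were also the ones in which a member had the fewest transcripts with a count, 4.52 and 4 on average, against 10.6 and 10.2 at 5 dpf. The part of the low counts at 24 dpf in this was not tested.

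**Figure D5:**
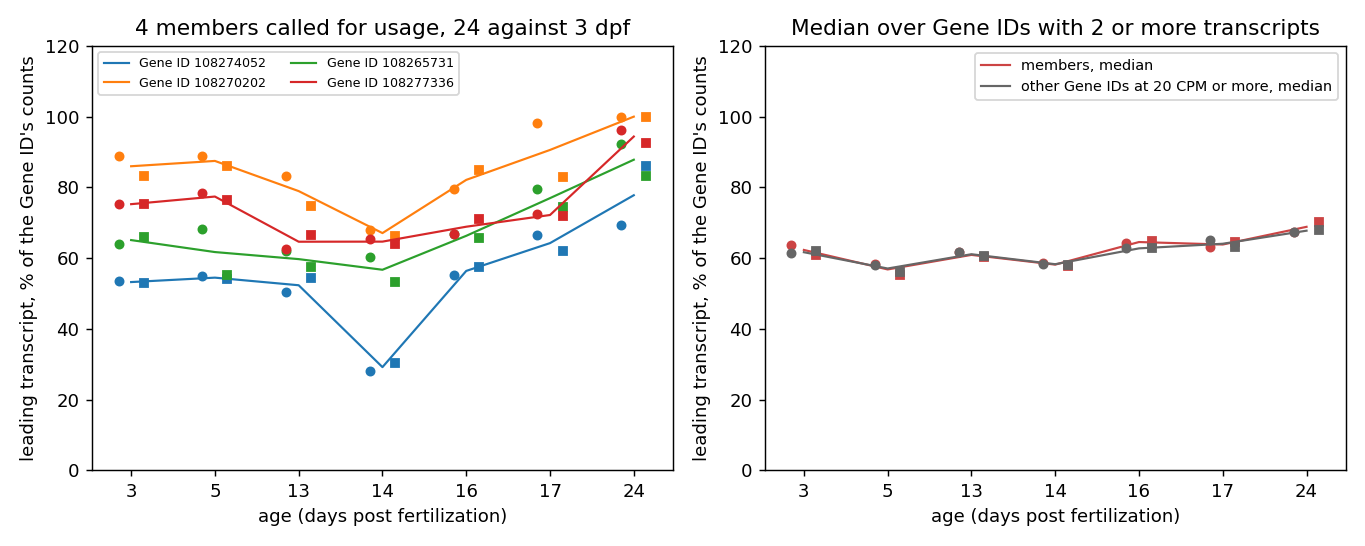
Share of an ID's counts on its leading transcript by age, with circles for replicate 1, squares for replicate 2 and lines through the age means, for 4 members called for 24 against 3 dpf (left) and as the median over the members with at least 2 transcripts and 2753 other Gene IDs (right). Both 24 dpf libraries have the highest median shares, 67.4 and 70.2% in the members.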

How the data were processed

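Per the labels' protocols, ribosomal RNA was removed from whole-fry RNA before NEBNext Ultra libraries were built. The values are expected counts that the authors deposited for 172513 assembled transcripts, each with a Gene ID, in 14 columns, 1 per library. Tools named, per the submitters' processing notes and with no order, are RSEM, DESeq2, Trimmomatic 0.36, CASAVA 1.9.1 and FastQC. The aligner, the use of strand and the origin of the Gene IDs: not given in the sources used here.

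Counts were summed over the 166841 transcripts with a Gene ID of digits, and rounded for tests. The filter was filterByExpr by age (minimum count 10), with library totals taken after it, and TMM scaling followed, in edgeR 4.0.16 and R 4.3.3. All 14 libraries entered 1 quasi-likelihood fit with age as the only term. Transcript shares were tested with diffSpliceDGE on filtered transcripts. Adjustment was by Benjamini-Hochberg over all features of a comparison. SE is the absolute log2 change over the square root of F. Fits were also run on simulated data with changes in level larger than those of the members, so nothing about the members' smaller changes is read from them. DESeq2 1.42.0, limma-voom (limma 3.58.1), other scalings and filters, and left-out libraries were tried as alternatives.

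The members and all lists were chosen with earlier results of these data known. IDs named are the 5 with the smallest CV, ranks 75 and 76, the last 2 members and the first 2 outside, the highest and lowest mean, the 2 largest rises and decreases from 3 to 24 dpf, 4 members called for usage with the widest change of leading share, and the member with the most transcripts. Libraries ranged from 1460853 to 8837320 counts. Mean chi-square values of 1.34 to 15.3 per Gene ID between the 2 libraries of an age showed no pair alike within counting noise.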

Additional observations from a re-analysis of the deposited data

Results flagged for a closer look

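Gene IDs that contain letters were outside the rule. They number 1401 and held 0.351 to 1.54% of the counts of a library. When all Gene IDs were admitted, 14 of them had at least 20 CPM in all libraries and 1 was among the 150 steadiest, with a CV of 15.2%.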

How the results depend on the processing

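The alternatives were fixed with the tests, except the totals without the 20 highest Gene IDs, the squared CV less its counting part, the list without 24 dpf and the settings of the share tests for the 6 age steps, which were chosen after seeing the data. Of 370 alternative values, 299 stayed near the reported ones, that is, within 1.5-fold for a count or within the members' SD for a CV. The cause was not tested for the others, except that a share limit can only lower a count. Likewise, a minimum of 50 CPM drops by definition each member under 50 CPM in any library. Leaving out a library lowered some counts and raised others. Calls over all Gene IDs, for levels and for shares, also fell for 16 against 14 dpf without any one library of these ages. Of the 150 members, 0 were chosen again at unscaled totals, 24 at totals without the 20 highest Gene IDs, 91 and 99 on the libraries of replicate number 1 or 2 alone, 49 without 17 and 24 dpf, 95 without 5 dpf, 87 without 24 dpf and 50 with a minimum of 50 CPM. The members' median CV was 36.3% at unscaled totals, 20.1% at totals without the 20 highest and 12.5% without 17 and 24 dpf. SD of log2 CPM kept 137, the highest over lowest ratio 116, the squared CV less counting 130, and a minimum of 10 CPM 116. Without the low-count filter 26 members were called for 17 against 16 dpf and 7 for 24 against 3 dpf. For shares, Simes' test called 32, 36, 13, 3 and 2 members for 14 against 13, 16 against 14, 17 against 16, 24 against 17 and 24 against 3 dpf. These were 23.4, 26.3, 9.49, 2.19 and 1.46% of the members tested, against 15.0, 22.4, 7.06, 1.49 and 4.07% of all Gene IDs tested. Transcripts with 10 counts or more gave 15, 4 and 2 for the last 3 (10.2, 2.72 and 1.36%, against 8.05, 1.29 and 3.57%). With a share change of 20 points as well, 7, 11, 9, 7, 4 and 5 were called in the 6 steps in order and 5 for 24 against 3 dpf.

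Left-out libraries gave 106 to 144 members, a median CV of 13.9 to 14.9%, 54 to 96 members and 16376 to 17315 Gene IDs called over the 7 ages; where an age keeps 1 library, it is taken to vary like the others. The 7 ages had 55 and 54 members called without replicate 1 or 2 of 14 dpf. For levels, members called were 12 to 35 for 5 against 3 dpf (17, 14, 16 and 12 without replicates 1 and 2 of 3 dpf and of 5 dpf), 12 to 39 for 13 against 5 (17 and 12 without those of 5 dpf, 15 without replicate 1 of 13 dpf), 7 to 32 for 14 against 13 (12 without replicate 1 of 13 dpf, 7 and 10 without those of 14 dpf), 2 to 28 for 16 against 14 (6 and 6 without those of 14 dpf, 2 and 4 without those of 16 dpf), 8 to 19 for 17 against 16 (8 and 9 without those of 16 dpf, 11 without replicate 1 of 17 dpf), 3 to 9 for 24 against 17 (4 without replicate 2 of 17 dpf, 3 without replicate 2 of 24 dpf) and 6 to 16 for 24 against 3 (6 and 7 without those of 3 dpf, 7 and 6 without those of 24 dpf). For shares they were 59 to 81 for 5 against 3 and 60 to 79 for 13 against 5, 24 to 53 for 14 against 13 (27 without replicate 1 of 13 dpf, 26 and 24 without those of 14 dpf), 22 to 64 for 16 against 14 (28 and 32 without those of 14 dpf, 34 and 22 without those of 16 dpf), 9 to 37 for 17 against 16 (9 and 9 without those of 16 dpf, 12 and 15 without those of 17 dpf), 2 to 10 for 24 against 17 (2 without replicate 2 of 17 dpf, 2 and 3 without those of 24 dpf) and 2 to 17 for 24 against 3 (6 and 9 without those of 3 dpf, 2 and 3 without those of 24 dpf).

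No pairing by replicate number was found, with correlations of same-numbered deviations of -0.07 to 0.05 over 21 pairs of ages. With the replicate block 78 members were called over the 7 ages, 23, 26, 28, 16, 15, 7 and 12 in the 7 comparisons of level and 67, 63, 50, 58, 33, 9 and 17 in those of shares. Depth limits the members most at 24 dpf, where a member can have as few as 15 counts.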
